A study of Mus musculus with 2 samples.

Results

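Mir23, Mir27 and Mir24 genes stand side by side at a pair of places in the mouse genome, as Mir23b, Mir27b and Mir24-1 on chromosome 13 and as Mir23a, Mir27a and Mir24-2 on chromosome 8. These 6 genes were chosen by name out of 1973 miRNA genes counted in embryonic facial prominence, the tissue from which the face and jaws form. Mir24-1 has no line of its own in the counts. It was read instead from the counts that fell on the opposite strand of Mir3074-1, a gene annotated antisense to it. The 2 libraries were microRNA sequencing of RNA under 30 bases, from healthy B6NCrl mouse embryos at day 13.5, males and females pooled. Both belong to a single untreated group, labelled biological replicates 1 and 2, so levels and their spread were measured and no contrast between conditions exists. Whole tissue was used, so fewer cells of a type and less RNA per cell cannot be told apart.

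Each gene of such a cluster is folded into a hairpin within a longer transcript, cut out by the nuclear enzyme Drosha and trimmed by Dicer to short arms, named 5p and 3p. An arm loaded into an Argonaute protein represses messenger RNAs that pair with its seed. In mice, miR-23 and miR-27 are known to promote the sprouting of blood vessels by repressing Sprouty2 and Sema6a. miR-27b is known to lower Pax3 in muscle progenitors, and miR-23b to repress Smad genes of the TGF-beta pathway in fetal liver. In zebrafish, miR-27 is needed for pharyngeal cartilage, which makes the family of interest in a face. miR-24 is known for its part in the cell cycle and cell survival.

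The sequences show which reads can be told apart between the clusters, so arms of both clusters are given first (miR-23b-3p and the 5p arms of the Mir27 genes are named only), 5′ to 3′ from RefSeq on GRCm38.p6, with the seed (bases 2 to 8) in capitals. The 3p arms of the Mir27 genes share the seed UCACAGU, and those of the Mir24 genes are the same RNA with the seed GGCUCAG.
miR-27b-3p (chr13:63300760-63300780, plus strand): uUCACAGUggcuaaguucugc
miR-27a-3p (chr8:84208727-84208747, plus strand): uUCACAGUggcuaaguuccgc
miR-23a-3p (chr8:84208563-84208583, plus strand): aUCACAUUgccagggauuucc
miR-24-3p (chr13:63301251-63301272 and chr8:84208875-84208896, plus strand): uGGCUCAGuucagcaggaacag
miR-23b-5p (chr13:63300492-63300512, plus strand): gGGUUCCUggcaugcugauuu
miR-23a-5p (chr8:84208527-84208548, plus strand): gGGGUUCCuggggaugggauuu
miR-24-1-5p (chr13:63301213-63301235, plus strand): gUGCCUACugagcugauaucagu
miR-24-2-5p (chr8:84208839-84208860, plus strand): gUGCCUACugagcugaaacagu

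Counted from the 5′ end, miR-27b-3p and miR-27a-3p differed at 1 of 21 bases, by U19C with the miR-27b base first. A read that starts at base 1 and stops at or before base 18 is therefore the same for both genes. Likewise, the first 18 of the 21 bases of miR-23a-3p also lie in the Mir23b hairpin. miR-24-3p is identical over all 22 bases, while the 5p arms of Mir24-1 and Mir24-2 share their first 16 bases and then part. The deposited counts hold reads with a single place in the genome, and reads placed at several loci stand in a separate class. A full-length miR-24-3p read has a place at both loci and belongs in that class, so the Mir24 values below are of other reads of these hairpins. The files give no counts by arm.

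The Mir24 hairpins, with both annotated arms in capitals, show where the loci match and where they differ.
Mir24-1 (chr13:63301208-63301275, plus strand): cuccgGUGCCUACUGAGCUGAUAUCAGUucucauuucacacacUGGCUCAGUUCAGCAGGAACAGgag
Mir24-2 (chr8:84208815-84208921, plus strand): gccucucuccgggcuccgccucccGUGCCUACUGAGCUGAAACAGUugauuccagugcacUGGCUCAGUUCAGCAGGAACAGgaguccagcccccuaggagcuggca

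Of the 20-base windows of a hairpin, 9 of 49 in Mir24-1 and 9 of 88 in Mir24-2 also occurred in the other, against 1 of 55 in Mir23b, 1 of 56 in Mir23a, 1 of 54 in Mir27b and 1 of 68 in Mir27a. These were the only overlaps found among 1005 RefSeq hairpins. The 3p seed of miR-24 also occurs in Mir6413, Mir6410, Mir6369 and Mir5124b, and each of these had a count of 0 in both libraries. A count of 0 allows up to 3 counts, or 0.520 CPM in replicate 2 and 0.658 CPM in replicate 1. CPM are counts per 1000000 of the counts on the same strand as an annotated miRNA gene.

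The clusters differ in layout. The chromosome 13 hairpins lie within 792 bases of the plus strand, with 154 bases between Mir23b and Mir27b and 423 between Mir27b and Mir24-1. They are inside 2010111I01Rik (Aopep), an aminopeptidase gene on the same strand, and opposite an intron of Fancc, a DNA repair gene. Mir23b (chr13:63300484-63300557) is in an intron of 2010111I01Rik, whereas Mir27b (chr13:63300712-63300784) and Mir24-1 lie in an exon of 1 and 4 of its 28 annotated transcripts. The chromosome 8 hairpins fit in 404 bases, with 79 bases between Mir23a (chr8:84208518-84208592) and Mir27a (chr8:84208672-84208758), and 56 bases between Mir27a and Mir24-2. Mir23a and Mir27a lie between genes, and Mir24-2 overlaps the long non-coding RNA Gm26532 by 2 bases. Spacing and level are set side by side in the map of the hairpins.

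**Figure D1:**
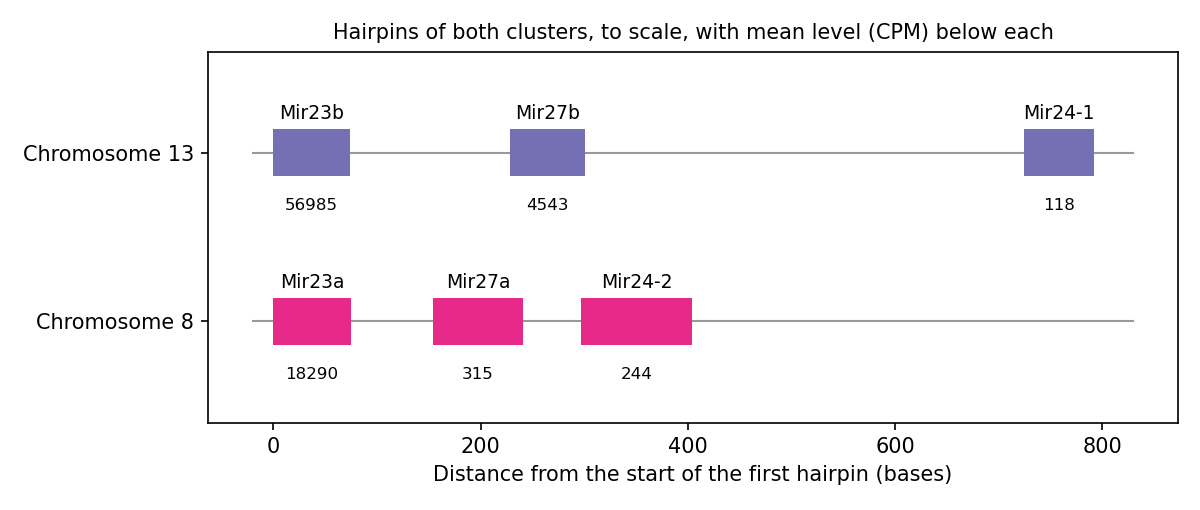
Hairpins of the chromosome 13 and chromosome 8 clusters drawn to scale along the distance in bases from the start of the first hairpin, with the mean level in CPM of 2 libraries under each. In uniquely placed reads, the level falls from the Mir23 to the Mir24 hairpin in both clusters. The chromosome 8 hairpins are packed in 404 bases against 792 on chromosome 13.

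Library totals on miRNA genes were 5771249 counts in replicate 2 and 4562135 in replicate 1, and reads placed at several loci made up 31.0% and 30.7% of all reads. Facial tissue markers were present: the epithelial list of 7 genes summed to 63309 CPM in replicate 2 and 63539 CPM in replicate 1, and the smooth muscle and mesenchyme list of 4 genes to 46368 and 45297 CPM. The cartilage list of 2 genes summed to 24260 and 20452 CPM, and endothelium was read from Mir126a alone, given further on. Striated muscle (385 and 622 CPM), neuron (418 and 428 CPM), red blood cell (160 and 101 CPM) and white blood cell lists (502 and 486 CPM) held less. The white blood cell sum covers 2 of 3 listed genes, Mir223 and Mir155, because Mir142 had no line in the counts. It therefore sets no limit on white blood cell RNA. The neuronal Mir124a-1 and Mir9-2 were at 0 in both libraries, but their mature RNAs are known to be encoded at several loci, so these zeros set no limit on neuronal RNA.

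Both clusters were expressed and, in uniquely placed reads, both were dominated by their Mir23 gene. Together the 6 genes held 7.13% of counts in replicate 2 and 8.97% in replicate 1. Mir23b supplied 91.3% and 93.3% of the chromosome 13 counts in replicates 2 and 1, and Mir23a 96.7% and 97.3% of those on chromosome 8. Each count is a read of a single short RNA, so CPM were not divided by hairpin length.

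Mir23b had 280611 counts in replicate 2 and 298124 in replicate 1, or 48622 and 65347 CPM, for a mean of 56985 ± 11827 CPM (SD, n = 2). In ranks that leave out reads placed at several loci, it was the 4th and the 2nd most abundant gene of the same-strand table in those libraries. Replicate 2 gave it a share of 4.86% of counts, with 95% Wilson bounds of 4.84 and 4.88, and replicate 1 a share of 6.53%, with bounds of 6.51 and 6.56. Intervals cover counting error within a library only and leave out the spread between libraries. PCR copies were also not told apart by molecular identifiers. Mir23a ranked 18 in replicate 2 with 17446 CPM, and 15 in replicate 1 with 19134 CPM, for a mean of 18290.5 ± 1194 CPM. The libraries did not overlap between these paralogs: the lower Mir23b value was well above the higher Mir23a value.

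Mir27b was lower than either Mir23 gene, with 26023 counts (4509 CPM) in replicate 2 and 20879 counts (4577 CPM) in replicate 1, averaging 4543 ± 47.7 CPM (SD, n = 2). Mir27a was far lower than its paralog, with 2020 counts (350.0 CPM) in replicate 2 and 1276 counts (280 CPM) in replicate 1, averaging 315 ± 49.7 CPM. At the third position, Mir24-1 had 584 counts (101 CPM) in replicate 2 and 611 counts (134 CPM) in replicate 1, averaging 118 ± 23.1 CPM. Mir24-2 had 1390 counts (241 CPM) and 1130 counts (248 CPM), averaging 244 ± 4.84 CPM. Here the chromosome 13 gene was the lower one in both libraries.

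In descending order the levels in uniquely placed reads ran Mir23b, Mir23a, Mir27b, Mir27a, Mir24-2 and Mir24-1, the same in both libraries. No neighbours in this order overlapped between libraries, and the closest were Mir27a and Mir24-2, whose ratio was 1.45 in replicate 2 and 1.13 in replicate 1. The plot of levels by gene and library shows the order.

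**Figure D2:**
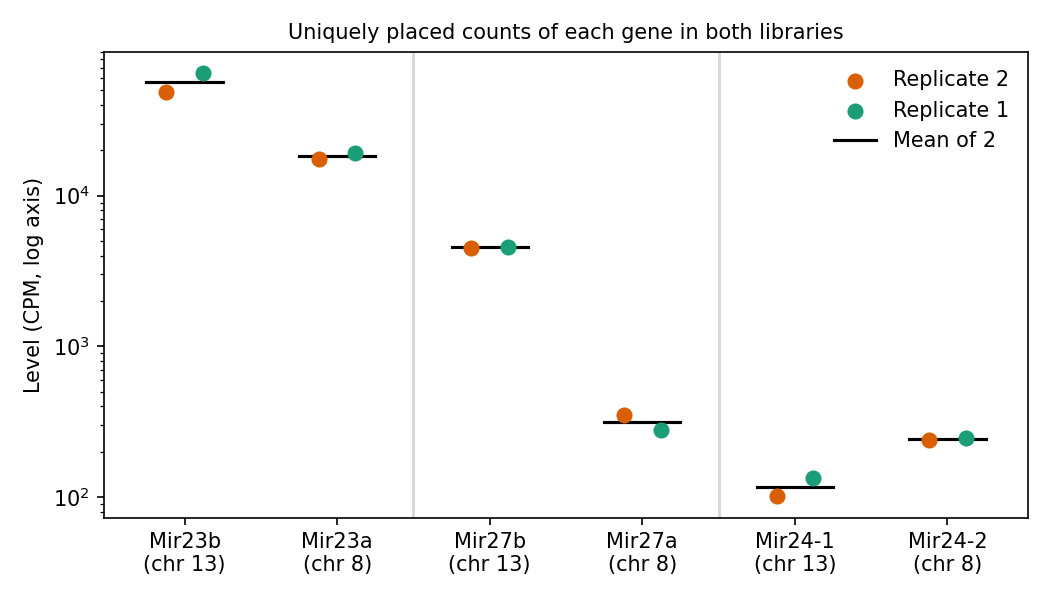
Level in CPM on a log axis of each gene in replicate 2 and replicate 1 (points), with the mean of both (bar), arranged as paralog pairs with the chromosome 13 gene on the left. The chromosome 13 gene is the higher of its pair for Mir23 and Mir27 and the lower for Mir24, where 118 CPM stand against 244 CPM.

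Set against each other by position in uniquely placed reads, the clusters differed in size and, at the last position, in direction. Mir23b exceeded Mir23a by 2.79-fold in replicate 2 and 3.42-fold in replicate 1. Mir27b exceeded Mir27a by 12.9-fold and 16.4-fold. The count ratio of Mir24-1 to Mir24-2 was 0.420 in replicate 2 and 0.541 in replicate 1. With all 3 genes summed, chromosome 13 exceeded chromosome 8 by 2.95-fold and 3.56-fold, which is close to the Mir23 ratio because that gene supplies most counts. As mean log2 ratios of chromosome 13 to chromosome 8 (SD, n = 2), the values were 1.63 ± 0.21 for Mir23, 3.86 ± 0.24 for Mir27 and -1.07 ± 0.26 for Mir24. With 2 libraries of 1 group, no permutation of samples gives a p under 0.5, so these ratios are described without a test.

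The gap between positions was larger than the spread between libraries. The Mir27 ratio exceeded the Mir23 ratio by 4.62-fold in replicate 2 and 4.79-fold in replicate 1, and the Mir23 ratio exceeded the Mir24 ratio by 6.63-fold and 6.32-fold. These ratios of ratios moved by under 0.1 on the log2 scale between libraries. Seen along each cluster, Mir23b exceeded Mir27b by 10.8-fold and 14.3-fold in replicates 2 and 1, while Mir23a exceeded Mir27a by 49.8-fold and 68.4-fold. The next step was larger on chromosome 13 in uniquely placed reads: Mir27b exceeded Mir24-1 by 44.6-fold and 34.2-fold. Mir27a exceeded Mir24-2 by 1.45-fold and 1.13-fold. The Mir24 counts leave out full-length reads of the arm that both Mir24 genes share, and no Mir27 arm is shared in full. Ratios that involve Mir24 therefore compare different kinds of reads. Whether the steps would differ with the shared arm counted was not tested.

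The balance between the clusters itself moved between the libraries, in the same direction at every position. The chromosome 13 gene made up 73.6% of the Mir23 pair's counts in replicate 2 (exact 95% interval 73.5 to 73.7) and 77.4% in replicate 1 (77.2 to 77.5). For Mir27 it made up 92.8% (92.5 to 93.1) and 94.2% (93.9 to 94.5), and for Mir24 29.6% (27.6 to 31.7) and 35.1% (32.9 to 37.4). None of the 3 pairs of intervals overlapped. The log2 ratio of chromosome 13 to chromosome 8 was lower in replicate 2 than in replicate 1 by similar amounts, with differences of -0.29 for Mir23, -0.35 for Mir27 and -0.36 for Mir24. Such movement was not particular to these genes. Among 9 other paralog pairs with similar but distinct mature sequences, the absolute difference ranged from 0.01 (Mir15a/Mir15b) to 1.61 (Mir10b/Mir10a) with a median of 0.26, and 4 of the 9 moved further than each of the Mir23, Mir27 and Mir24 pairs. Those pairs went both ways, 6 higher and 3 lower in replicate 2, as the plot of paralog ratios shows.

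**Figure D3:**
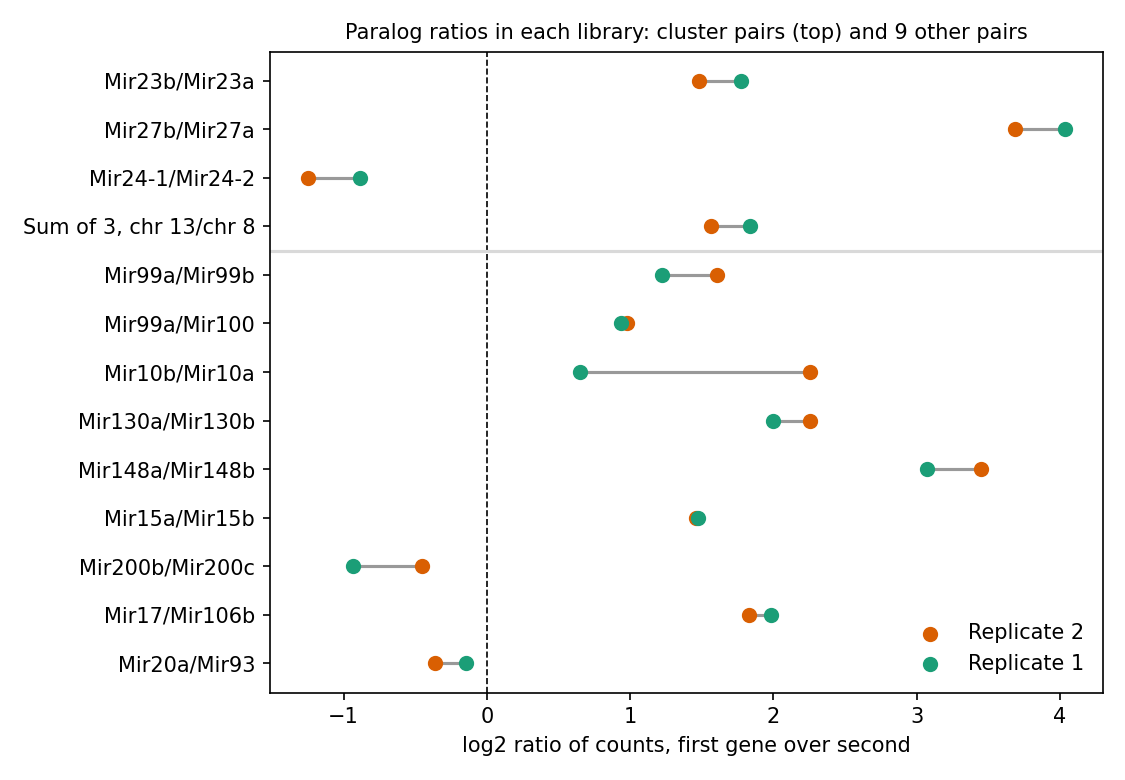
Log2 ratio of counts of the first gene over the second in replicate 2 and replicate 1 (points joined by a line), for the 3 cluster positions, their sum and 9 other paralog pairs; the dashed line marks equal counts. All 3 positions lie further left in replicate 2, by 0.29 to 0.36, and the Mir24 pair is the only one of the 3 left of equality. Its counts leave out full-length miR-24-3p reads.

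Gene by gene, 4 of the 6 differed between the libraries beyond counting error by an exact binomial test with Benjamini-Hochberg adjustment over 361 tested genes, against 55.1% of all tested genes. This test compares these 2 libraries and no conditions. Higher in replicate 1 were 3 of the 6, against 27.4% of tested genes, and higher in replicate 2 was 1, against 27.7%. The share called among the members was thus near that of the table. As log2 ratios of replicate 2 to replicate 1, Mir23b stood at -0.43, and Mir24-1 at -0.40 (adjusted p = 4.11e-06, exact binomial test). Mir23a was at -0.13 (adjusted p = 4.43e-88, exact binomial test), a small difference between very large counts. Mir27a was the gene higher in replicate 2, at 0.32 (adjusted p = 1.14e-09, exact binomial test). Mir27b (-0.02) and Mir24-2 (-0.04) did not pass, with adjusted p of 0.158 and 0.569 in the exact binomial test.

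Both clusters showed the same order of these differences. Relative to its Mir23 neighbour, the Mir27 gene stood higher in replicate 2 than in replicate 1, by 0.41 on chromosome 13 and 0.46 on chromosome 8 (log2). The Mir24 gene lay in between in each, though close to Mir23. The log2 ratio of Mir23b to Mir24-1 moved by -0.02 and that of Mir23a to Mir24-2 by -0.09. Whether these small gaps exceed counting error was not tested. The absolute log2 ratio had a median of 0.24 over the 361 tested genes and an upper quartile of 0.43. All 6 members lay within that quartile, and 26.0% of tested genes had a larger difference than Mir23b, the largest of the 6. The plot of differences by position shows the lines of both clusters running nearly parallel.

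**Figure D4:**
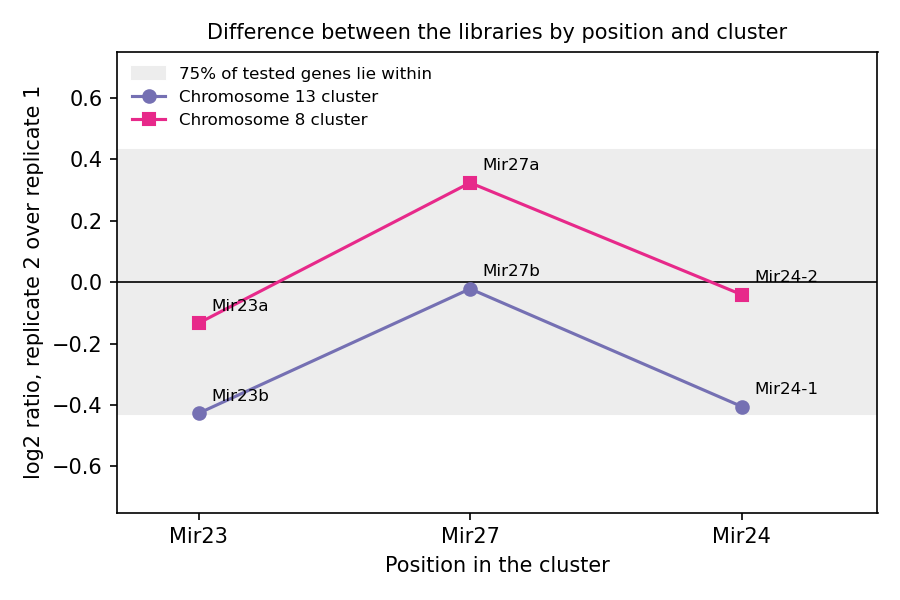
Log2 ratio of replicate 2 over replicate 1 for the Mir23, Mir27 and Mir24 positions of the chromosome 13 and chromosome 8 clusters; the grey band holds 75% of the 361 tested genes. The chromosome 13 line lies below the chromosome 8 line at every position, and both are highest at Mir27 (-0.02 and 0.32).

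Among genes with known roles in blood vessels, 12 of a list of 15 had a line in the counts. Of these, 5 were higher in replicate 2, 3 were higher in replicate 1 and 4 did not pass; of all tested genes, 27.7% were higher in replicate 2 and 27.4% in replicate 1. The list's median log2 ratio was 0.12, against -0.01 over all tested genes. The highest were Mir17 (36375 CPM in replicate 2 and 36420 CPM in replicate 1), Mir130a (34849 and 31316 CPM) and the endothelial Mir126a (23871 and 25810 CPM). Mir126a, a marker of endothelium, was higher in replicate 1 with a log2 ratio of -0.11, in the same direction as Mir23b and Mir23a. So were the muscle gene Mir206 (-0.86) and the epidermal gene Mir203 (-0.51). Mir200b (0.59), Mir429 (0.46) and others, 5 of the 7 epithelial markers in all, were higher in replicate 2, with a list median of 0.39. The striated muscle markers did not move together either: Mir208b was higher in replicate 2 (0.64) and Mir133b did not pass (-0.25). The part of these cell types in the members' differences was not tested. Of 10 genes tied to face and palate development, 4 were higher in replicate 2, 3 higher in replicate 1 and 3 did not pass, set against the same 27.7% and 27.4% of all tested genes. Its median log2 ratio was 0.03, against -0.01 over all. This list was led by Mir17, Mir214 of mesenchyme (24589 and 26825 CPM) and the cartilage gene Mir140 (22710 and 18603 CPM). In uniquely placed reads, Mir23b stood above every gene of the list in both libraries. Reads placed at several loci carry no gene and are left out of this comparison and of the counts above.

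By distance in log2 CPM over the 2 libraries, the genes nearest to Mir23b among 355 others were Mirlet7i (0.30), Mirlet7g (0.30) and Mir335 (0.45). Mirlet7i had 57346 CPM in replicate 2 and 73750 CPM in replicate 1. In the same order, Mirlet7g had 54804 and 55301 CPM, and Mir335 45218.5 and 48410 CPM. These genes were picked by their values in these same libraries, so a direction shared with Mir23b carries no further weight. Nearest to Mir23a were Mir143 (0.27), Mir203 (0.28) and Mir30e (0.31), at 19231, 15805 and 17438 CPM in replicate 2 and 16319, 22575 and 15404 CPM in replicate 1.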

How the data were processed

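Small RNA of 2 libraries was analysed. The deposited values are raw read counts per annotated miRNA gene, made by the authors on mm10 with the M4 release of GENCODE, as the deposited descriptions state; the sources used here name no aligner, trimming or settings. The files have no header, and the columns were read as strand-blind, same-strand and opposite-strand counts because the first equalled the sum of the others in every gene line (0 exceptions). The same-strand column was used, and the opposite-strand column of Mir3074-1 for Mir24-1, whose counts are outside the CPM total. Lines of no gene (multiply placed, unmapped and featureless reads) stayed out of totals; same-strand gene counts were 44.1% of reads in each file.

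Names and positions came from GENCODE M21 (GRCm38), which matched 1894 of 1973 identifiers. Sequences came from RefSeq (GRCm38.p6), where 6 of 6 genes had a hairpin. Libraries were scaled by TMM (edgeR 4.0.16, R 4.3.3), and a two-sided exact binomial test set the libraries against each other for genes with at least 10 counts in both, adjusted by Benjamini-Hochberg at 0.05 (SciPy 1.17.1). A quasi-likelihood fit needs replicates on each side and was not possible. The test was checked on simulated counts drawn with counting error only, so the check says nothing of its behaviour under spread between replicates. P-values measure the spread between these samples against counting error only. Alternatives were other scalings (DESeq2 1.42.0), count minimums, denominators, the strand-blind column, a pseudocount and single libraries. Named genes were the members, genes within 10 kb, the 3 genes nearest in level to Mir23b and to Mir23a, seed relatives, list leaders and paralog pairs. Members and lists were chosen with earlier results of these data known.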

Additional observations from a re-analysis of the deposited data

Results flagged for a closer look

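Reads outside the columns used for the 6 genes were present at the chromosome 13 cluster. On its own strand Mir3074-1 had 351 counts in replicate 2 and 278 in replicate 1, more than the 3 counts allowed by a count of 0, or 60.8 and 60.9 CPM. Its opposite strand, used for Mir24-1, had 1.66 and 2.20 times as many. The arm miR-3074-5p is identical over 22 bases in Mir3074-1 and Mir3074-2, so its full-length reads also have several places. Both sides of that ratio therefore leave out full-length reads of a shared arm. Own-strand counts did not pass between the libraries, with a log2 ratio of replicate 2 to replicate 1 of 0.00 (adjusted p = 1.0, exact binomial test). Reads placed at several loci came to 4058237 in replicate 2 and 3179149 in replicate 1; they carry no gene in the files, and how many are miR-24-3p was not measured.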

How the results depend on the processing

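The log2 ratios between paralogs kept their direction with 5 reads added to each gene, and those between paralogs and along each cluster did so in either library alone. Strand-blind counts say nothing of stability here, since Mir23b, Mir27b, Mir23a and Mir27a had 0 opposite-strand counts, Mir24-2 had 2 in replicate 2 and Mir24-1 kept its column. Single libraries gave 1.48 to 1.77 for Mir23, 3.69 to 4.03 for Mir27 and -1.25 to -0.89 for Mir24; with 2 libraries a single value always lies within 1 SD of the mean. Genes called between libraries, 199 of 361 tested in the main analysis, ranged from 179 of 260 with a minimum of 100 counts to 210 of 370 with strand-blind counts. A minimum of 1 count gave 203 of 553, so the share called depended on the minimum. Scaling by edgeR and DESeq2 gave 199 and 198. The log2 ratio of Mir27b changed sign to 0.0022 with a count minimum of 1, not passing the test in either setting, since it lies near 0; no call of a member was gained or lost. Over all reads in place of gene counts, levels were lower (25120 CPM for Mir23b). No paired analysis was possible because the study has 1 group, so no groups share replicate numbers; paralog ratios were taken within each library. Mir24 values rest on 584 to 1390 counts and leave out full-length miR-24-3p reads, which more depth would not add.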
